A study of Caenorhabditis elegans with 20 samples.

Results

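The *fbxa* and *fbxb* genes encode the A and B families of F-box proteins of *C. elegans*. They were followed here on whole-genome Affymetrix arrays as the probesets that the platform annotation assigns to 1 gene whose symbol is *fbxa* or *fbxb* plus a number. This gave 249 probesets of 246 genes, 156 probesets of 153 *fbxa* genes and 93 probesets of 93 *fbxb* genes, among 20563 probesets tested. A further 14 probesets that the annotation gives to several *fbxa* or *fbxb* genes at once were kept apart. All worms, controls included, were of strain DA1316, which carries *glc-1(pk54)* and *avr-14(ad1302)* together with an *avr-15* mutation, *ad1250* in the sample labels and *vu227* in the methods of the study. The mutated genes encode subunits of the glutamate-gated chloride channels through which ivermectin (IVM) acts, and the strain is known for its resistance to the drug. Synchronised cultures were grown for 53 hr on plates with bacteria and exposed for 4 hr. There were 5 arrays with 1 µg/ml IVM in 0.01% v/v DMSO, 5 matched controls with 0.01% DMSO alone, 5 arrays with 100 ng/ml IVM in 0.001% v/v DMSO and 5 matched controls with 0.001% DMSO alone. RNA came from whole nematodes. In each replicate 1 suspension of worms supplied both the IVM and the DMSO plates, so each dose has 5 pairs.

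F-box proteins are the substrate adaptors of SCF ubiquitin ligases. The F-box motif binds a SKP1-related protein, which in *C. elegans* is 1 of the SKR proteins, the SKR protein is held by a cullin, and the rest of the F-box protein binds the target that is to be ubiquitylated. Nematodes have unusually large and fast-changing F-box families, most of whose members have no known target. FBXA-75 and FBXA-158 are among the few with assigned partners: in *C. elegans* they work with the cullin CUL-6, the SKP1-related proteins SKR-3, SKR-4 and SKR-5 and the RING protein RCS-1 in the response to intracellular infection and proteotoxic stress.

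All values are log2 probeset intensities after RMA, a method that corrects background, normalizes the arrays to each other and summarises the probes of a probeset. They serve to compare arrays for a probeset, and they do not rank genes by transcript amount, since probes differ in how well they bind. The families were dim on these arrays. The mean over 20 arrays ran from 2.98 to 9.19 with a median of 4.01 for the 249 F-box probesets, against a median of 5.70 for all probesets. Of the F-box probesets, 159 (63.9%) lay in the lowest 25% of all probesets, and 29 (11.6%) lay above the median of all. Those 29 were mostly *fbxa*, with 26 of 156 *fbxa* probesets (16.7%) and 3 of 93 *fbxb* probesets (3.23%). The 24 pseudogene probesets had a median of 3.84, and the 225 protein-coding probesets had one of 4.03. The table has no detection calls or background values, so the number of F-box genes with transcript above background was not determined.

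**Figure D1:**
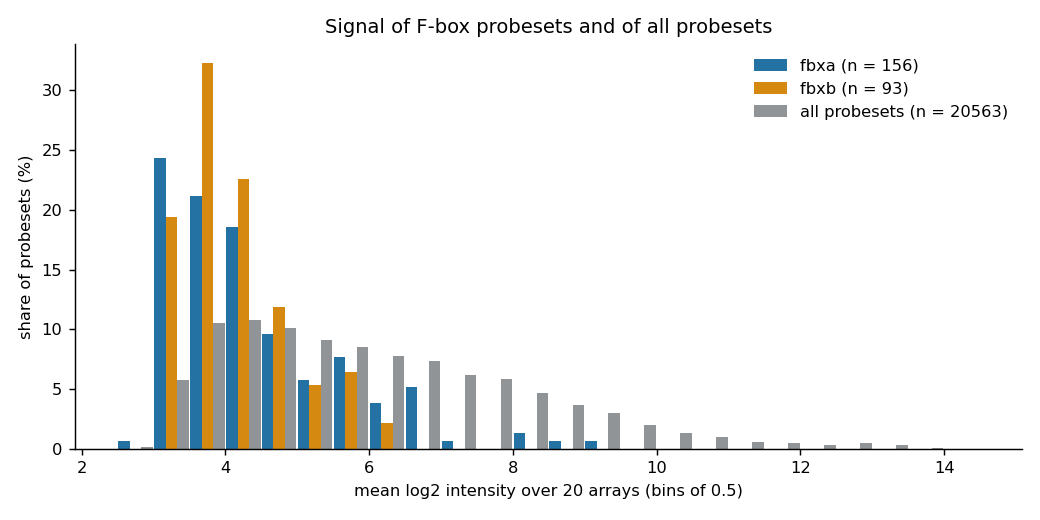
Share of probesets (%, y axis) by mean log2 intensity over 20 arrays (x axis, bins of 0.5) for 156 *fbxa*, 93 *fbxb* and all 20563 probesets, each set summing to 100%. Both F-box families sit to the left of all probesets, and the few bright F-box probesets, up to 9.19, are *fbxa*.

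The brightest F-box probesets were those of *fbxa-215* (9.19), *fbxa-101* (8.54), *fbxa-72* (8.36), *fbxa-210* (8.27), *fbxa-156* (7.30), *fbxa-77* (6.99), *fbxa-114* (6.91), *fbxa-150* (6.79), *fbxa-60* (6.70) and *fbxa-14* (6.62). None of the 10 is an *fbxb* gene. The brightest *fbxb* probeset, chosen after its value was seen, was that of *fbxb-58* at 6.35. The dimmest of all were *fbxa-118* (2.98), 1 of the *fbxa-214* probesets (3.03) and *fbxb-22* (3.04), beside 2.91 for the dimmest probeset of the whole array. *fbxa-75* (3.37) and *fbxa-158* (3.68), the adaptors of the CUL-6 ligase, lay at the 3.75th and 9.29th percentile of all probesets. For *fbxa-75* every one of the 20 arrays read between 3.19 and 3.61, and for *fbxa-158* between 3.50 and 3.94.

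The genes lie in groups on the chromosomes. By the gene order of the RefSeq annotation of assembly WBcel235, 71 of the *fbxa* probesets are on chromosome V and 43 on chromosome III, and 50 of the *fbxb* probesets are on chromosome II. Allowing up to 3 other genes between neighbours, 88 of the 246 genes stood alone, the rest fell in 44 runs of 2 or more members, and the 2 longest runs, both on chromosome III, hold 11 genes each. Most probesets (223) have IDs without a suffix for shared probes, 20 are of the s type, whose probes match several transcripts, and 6 of the x type, some of whose probes can cross-react. Among near-identical copies the signal of an s or x probeset cannot be assigned with certainty to the gene it is named for.

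Exposure to 1 µg/ml IVM changed 2 F-box probesets, *fbxa-54* and *fbxa-69*, both upwards. This is 0.803% of 249, where 3.48% of all probesets were called and 2.11% rose (limma, adjusted p under 0.05 over 20563 probesets, IVM minus DMSO with the replicate pair as a block). None of the F-box probesets fell, while 1.37% of all probesets did. At an unadjusted p under 0.05 there were 27 (10.8%), 19 of them higher, beside 15.6% of all probesets. By Rank Products, the method named for calling genes in the study, 0 of the 249 F-box probesets were called, beside 1.43% of all probesets. Of the 220 F-box probesets at or below the median intensity, limma called 2 (0.909%), beside 1.02% of all probesets there. Among the 29 brighter F-box probesets 0 were called by limma, where 5.93% of all brighter probesets were called, and 9 (31.0%) were at an unadjusted p under 0.05, beside 23.4% of all brighter probesets. No *fbxb* probeset was called by limma (4 at an unadjusted p under 0.05, all higher, and 0 by Rank Products). The median log2 fold change was 0.0036 for the F-box probesets and -0.014 for all probesets.

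*fbxa-54* lies on chromosome III in a run of F-box genes. Its log2 intensity in replicates 1 to 5 was 4.81, 5.49, 4.63, 5.08 and 4.40 with 1 µg/ml IVM, against 4.38, 4.50, 4.24, 4.54 and 3.88 in the DMSO controls. Every IVM array was above its own control, but the ranges of the groups overlap, since replicate 5 was low on both plates. IVM minus DMSO was 0.57 on the log2 scale (SE 0.10, n = 5 pairs, limma adjusted p = 0.0215). It was the largest change among the F-box members called.

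*fbxa-69*, on chromosome V, read 4.76, 4.81, 4.79, 5.46 and 4.63 with 1 µg/ml IVM, against 4.16, 4.11, 4.55, 4.67 and 4.42 in the controls. The IVM array of replicate 4 stood apart on the high side, and the groups overlap by the lowest IVM array and the highest control. All 5 pairs were higher, by 0.51 on average on the log2 scale (SE 0.11, limma adjusted p = 0.0415). Its probeset is of the s type, so other transcripts may add to this signal. Neither call held by Rank Products, without the replicate block, where the adjusted p was 0.685 for *fbxa-54* and 0.582 for *fbxa-69*, or with all 20 arrays in a single fit (0.0801 and 0.0671). Leaving out replicate 1 gave 0.0729 and 0.170, and leaving out replicate 4 gave 0.0916 and 0.158. The call of *fbxa-54* also ended without replicate 5 (0.0572) and that of *fbxa-69* without replicate 2 (0.0983).

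**Figure D2:**
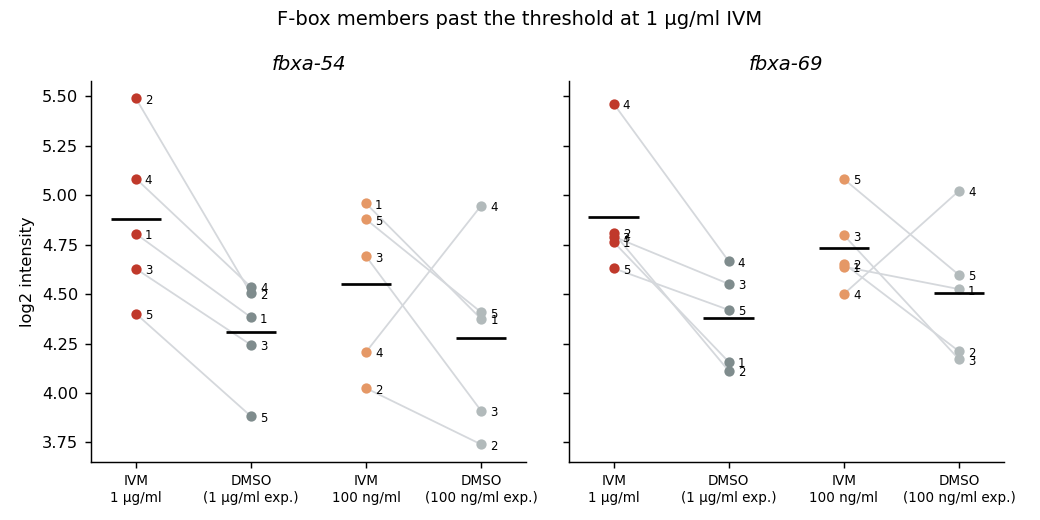
Log2 intensity (y axis) of *fbxa-54* and *fbxa-69* on each array of the 4 groups (x axis), with replicate numbers, grey lines joining the arrays of a pair and bars at the group means. At 1 µg/ml all 5 lines run down from IVM to DMSO for both genes, and at 100 ng/ml the line of replicate 4 runs the other way.

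Groups that do not overlap were not found for any F-box probeset at 1 µg/ml (0 of 249, beside 1.60% of all probesets). The same sign in all 5 pairs was seen for 21 F-box probesets, 13 higher and 8 lower with IVM, which is 8.43% against 15.3% of all probesets. Beyond *fbxa-54* and *fbxa-69*, the members higher in all 5 pairs with the largest differences were *fbxa-24* (log2 fold change 0.63, SE 0.17, adjusted p = 0.101 from limma), *fbxa-60* (0.43, SE 0.13, 0.120), *fbxa-71* (0.35, SE 0.09, 0.0993), *fbxa-55* (0.32, SE 0.12, 0.224), *fbxa-14* (0.26, SE 0.08, 0.159) and *fbxa-140* (0.25, SE 0.09, 0.203). None of them passed the threshold in that fit, and with a trended and robust variance *fbxa-24* did (adjusted p = 0.0461). *fbxa-24* read 4.55, 6.31, 4.83, 4.70 and 4.64 with IVM, against 4.20, 4.78, 4.34, 4.13 and 4.43 in the controls. The IVM array of replicate 2 was far above the rest, without replicate 2 the difference was 0.41 (limma adjusted p = 0.0775), and its x-type probeset may pick up other transcripts. The members lower in all 5 pairs were *fbxa-120* (-0.30, SE 0.09, adjusted p = 0.134), *fbxa-51* (-0.24), *fbxa-223* (-0.20), *fbxa-224* (-0.18), *fbxa-125* (-0.18), *fbxb-56* (-0.17), *fbxa-196* (-0.11) and *fbxb-81* (-0.11). Their adjusted p ran from 0.134 to 0.567.

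**Figure D3:**
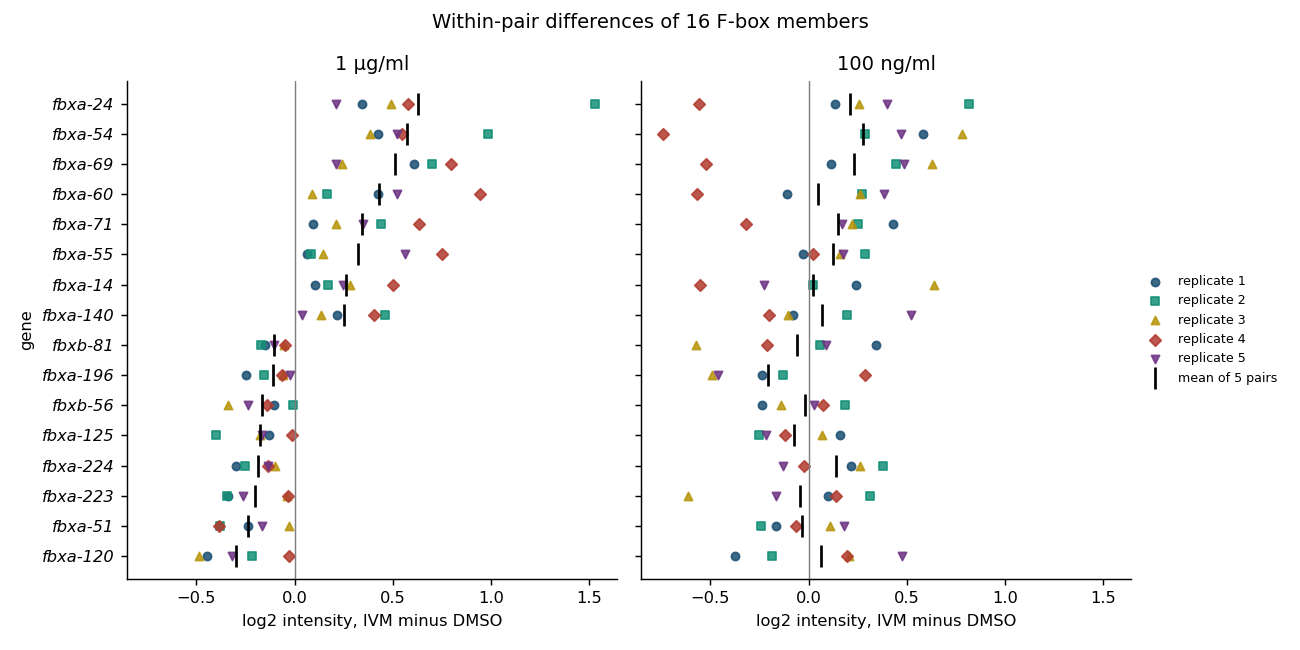
Difference in log2 intensity, IVM minus DMSO (x axis), in each of the 5 pairs at 1 µg/ml (left) and 100 ng/ml (right) for the 8 F-box members with the largest rises and the 8 with the largest falls among those of 1 sign in all 5 pairs at 1 µg/ml (y axis), with bars at the mean of the pairs. The left panel is of 1 sign by this choice. In the right panel, 7 of the 8 upper genes lie below 0 in replicate 4, all but *fbxa-55*.

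The run of 11 that holds the called gene *fbxa-54* shows how members close together differed. It begins at *fbxa-55* and ends at *fbxa-51* on chromosome III, in the order *fbxa-55*, *fbxa-56*, *fbxa-22*, *fbxa-59*, *fbxa-60*, *fbxa-67*, *fbxa-23*, *fbxa-11*, *fbxa-10*, *fbxa-54* and *fbxa-51*. With 1 µg/ml IVM, *fbxa-54* rose, *fbxa-60* and *fbxa-55* were higher in all 5 pairs, and *fbxa-67* was higher in 4 (0.32, SE 0.11, adjusted p = 0.188). *fbxa-51*, the member that follows *fbxa-54* in the run, was lower in all 5 pairs. The other 6 genes of the run had log2 fold changes between -0.10 and 0.08, and the median over the 11 was 0.057. *fbxa-60* and *fbxa-67* are both measured by x-type probesets, so they may not be independent readings. The second run of 11, from *fbxa-36* to *fbxa-27*, holds *fbxa-75* and *fbxa-14* and had a median of -0.019 with no gene called.

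Most changes in the families were small against their error. The median size of the log2 fold change at 1 µg/ml, sign aside, was 0.060 for F-box probesets with a median standard error of 0.089, against 0.092 and 0.097 for all probesets. For 247 of the 249 probesets the 95% confidence interval of the change, not adjusted for the number of probesets, lay inside a log2 change of 1 in either direction, and for 231 inside 0.5. The 2 exceptions at 1 were *fbxa-24* (0.23 to 1.03) and *fbxa-72* (-1.18 to -0.10). The same count was not made for all probesets. Such intervals describe array signal, and 159 of the 249 probesets lay in the lowest 25% by intensity. Without detection calls they do not bound the change in transcript.

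*fbxa-72*, on chromosome V, was the member with the largest difference in the downward direction. It read 9.03, 9.73, 7.46, 7.97 and 8.60 with 1 µg/ml IVM, against 9.01, 10.15, 9.15, 9.06 and 8.62 in the controls. Replicates 3 and 4 were far lower with IVM, replicate 2 was lower by less, and the arrays of replicates 1 and 5 were close to their controls. The mean of the pairs was -0.64 on the log2 scale (SE 0.24, limma adjusted p = 0.221), with 4 of 5 pairs lower. At 100 ng/ml it read 7.21, 7.68, 7.58, 8.22 and 7.09 with IVM, against 8.45, 8.03, 8.03, 7.74 and 8.43 in the controls. All IVM arrays but that of replicate 4 were below every control, and over 5 pairs the difference was -0.58 (SE 0.23, limma adjusted p = 0.936).

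At 100 ng/ml no F-box probeset passed the threshold in limma, with 9 at an unadjusted p under 0.05 (3 higher, 6 lower; 3.61%, beside 4.35% of all probesets) and 0 by Rank Products, beside 0.204% of all. Of all 20563 probesets 0 (0%) were called by limma. The smallest adjusted p was 0.936 in the families and in the whole table. The pair of replicate 4 ran against the others at this dose: *mtl-1*, a metallothionein gene, read 6.48, 6.77, 7.20, 6.59 and 6.88 with IVM, against 3.55, 3.95, 5.30, 7.89 and 3.38 in the controls. Without replicate 4, 3 F-box probesets were called (1.20%, where 1.52% of all probesets were, 0.977% upwards and 0.545% downwards), all *fbxa*. *fbxa-54* rose by 0.53 (adjusted p = 0.0413), while *fbxa-72* fell by 0.85 (adjusted p = 0.0426) and *fbxa-115* fell by 0.51 (adjusted p = 0.0348), over 4 pairs in limma. Whether these arrays differ for a technical reason, an exchange of the IVM and DMSO labels of replicate 4 included, was not tested. An exchange would turn the sign of every replicate 4 difference. The labels were kept, and values are given over all 5 pairs and without replicate 4.

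*fbxa-54* read 4.96, 4.02, 4.69, 4.21 and 4.88 with 100 ng/ml IVM, against 4.37, 3.74, 3.91, 4.95 and 4.41 in the controls, which is 0.28 higher on the log2 scale (SE 0.19) over 5 pairs. It was higher in 4 pairs and lower by 0.74 in replicate 4. *fbxa-69* read 4.64, 4.65, 4.80, 4.50 and 5.08 with 100 ng/ml IVM, against 4.53, 4.21, 4.17, 5.02 and 4.60 in the controls. It was higher by 0.23 (SE 0.15) over 5 pairs and by 0.42 (limma adjusted p = 0.111) without replicate 4, where all 4 remaining pairs were higher. So both genes called at the higher dose were on the same side in 4 of 5 pairs at the lower dose, and the exception was the same replicate.

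*fbxa-115*, on chromosome V, read 4.24, 3.74, 4.18, 4.28 and 4.13 with 100 ng/ml IVM, against 4.61, 4.24, 4.63, 3.94 and 4.87 in the controls. All IVM arrays other than that of replicate 4 were below their controls. Over 5 pairs the difference was -0.34 (SE 0.14, limma adjusted p = 0.936), and at 1 µg/ml it was 0.025 (SE 0.10). *fbxa-112*, an s-type probeset of chromosome V, was the only F-box probeset whose groups did not overlap at 100 ng/ml (1 of 249, or 0.402%, beside 0.156% of all). It read 5.80, 5.42, 5.50, 5.72 and 5.78 with IVM, against 5.94, 5.90, 5.90, 5.81 and 6.18 in the controls. Every IVM array lay below the lowest control, the highest of them only just. The difference was -0.31 (SE 0.09, limma adjusted p = 0.936), and -0.36 (0.131) without replicate 4. The same sign in all 5 pairs was seen for 15 F-box probesets (6.02%), 8 higher and 7 lower, beside 5.09% of all probesets, 2.81% higher and 2.29% lower. The largest differences upwards were those of *fbxa-153* (0.28, SE 0.09, 5 of 5 pairs), *fbxa-54* and *fbxb-57* (0.27, SE 0.10, 5 of 5 pairs), followed by *fbxa-84* (0.24) and *fbxa-69* (0.23). The largest downwards after *fbxa-72*, *fbxa-115* and *fbxa-112* were *fbxb-80* (-0.24) and *fbxa-196* (-0.21).

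The dose comparison asked whether the change at 1 µg/ml differed from that at 100 ng/ml. No F-box probeset differed between doses in limma (8 at an unadjusted p under 0.05, or 3.21%, beside 6.79% of all, and 95% intervals within a log2 difference of 1 either way for all 249), where 1 of all 20563 probesets did (0.00486%). The largest differences between doses, change at 1 µg/ml minus change at 100 ng/ml, were 0.46 (SE 0.15, adjusted p = 0.670) for *fbxa-67*, 0.42 for *fbxa-24* and 0.38 for *fbxa-60* in the upward direction. In the downward direction they were -0.36 for *fbxa-153*, -0.36 for *fbxa-120* and -0.34 for *fbxa-84*. For *fbxa-54* it was 0.30 (SE 0.24, adjusted p = 0.861), so its larger change at the higher dose was not shown to be dose dependent. By the labels no member had the same sign in all 10 pairs of both doses. *fbxa-54* and *fbxa-69* were picked by their calls at 1 µg/ml, where all 5 pairs were higher, so those pairs are no separate evidence. At 100 ng/ml they were higher in 4 of 5 pairs, and the exception was replicate 4. How many of all probesets did so was not counted.

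The level of the families followed the replicate pair more than the drug. The median of the 249 F-box probesets on an array was 3.91, 3.99, 4.12, 4.23 and 4.12 with 1 µg/ml IVM, against 3.90, 3.97, 4.18, 4.13 and 4.12 in the controls. It was 4.10, 3.91, 3.93, 3.94 and 4.04 with 100 ng/ml IVM, against 4.13, 3.90, 3.94, 3.91 and 4.06 in the controls. Replicates 3 to 5 of the 1 µg/ml experiment and replicates 1 and 5 of the 100 ng/ml experiment were thus high on both plates, and the others low on both plates. The array medians over all probesets stayed between 5.58 and 5.71. The median of the 4982 other probesets in the lowest 25% by intensity was higher in the same pairs. It was 3.82 to 3.92 in those pairs and 3.72 to 3.80 in the others, so this order was not particular to the families. The median of the 159 F-box probesets in that 25% varied over a range of 3.57 to 3.81 between arrays.

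**Figure D4:**
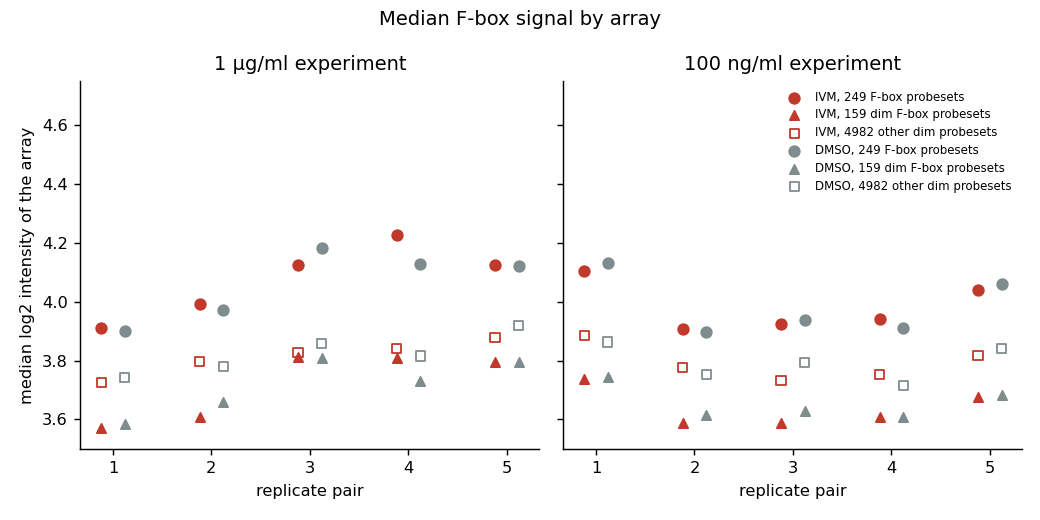
Median log2 intensity on each array (y axis) by replicate pair (x axis) for the 249 F-box probesets, for the 159 of them in the lowest 25% by intensity and for the 4982 other probesets of that 25%, with IVM arrays left of DMSO arrays. The arrays of a pair lie close together, and the medians of the 249 F-box probesets run from 3.90 to 4.23 over the pairs.

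Tissue markers also differed between the same pairs. The mean log2 intensity of 3 body wall muscle genes (*unc-54*, *myo-3* and *unc-15*) was 9.74, 10.42, 8.51, 7.94 and 8.40 with 1 µg/ml IVM, against 9.35, 10.12, 7.90, 8.13 and 8.19 in the controls. It was 8.48, 10.70, 10.91, 10.81 and 8.54 with 100 ng/ml IVM, against 8.32, 10.76, 10.95, 10.80 and 9.10 in the controls. The pairs with the higher F-box medians are those with the lower muscle signal. This order was not particular to body wall muscle. The mean of 3 pharynx genes (*myo-2*, *myo-1* and *pqn-8*) was 5.98 to 6.37 in those pairs, against 6.51 to 7.38 in the others. Of the 3, *pqn-8* did not follow it at 100 ng/ml. There it read 5.75 to 5.86 in replicates 1 and 5, against 5.53 to 5.93 in the others. In the pair of replicate 2 at 1 µg/ml the genes of adult hermaphrodites were low: *vit-2*, a yolk protein gene, read 4.36 with IVM and 5.18 in the control, where all other arrays read 9.54 or more, and *col-19*, an adult cuticle collagen gene, read 6.54 with IVM and 7.13 in the control, where all others read 11.40 or more. The other markers listed for the intestine, beside *vit-2*, and for the hypodermis, beside *col-19*, were not low in that pair. *elt-2* and *ges-1* of the intestine read 7.90 and 9.06 with IVM, and 7.62 and 8.35 in the control. *rol-6* and *dpy-7* of the hypodermis read 10.83 and 9.84 with IVM, and 10.61 and 11.21 in the control. These were the highest values of all arrays for both genes. For *bli-1* the control there was also the highest array on both probesets (8.85 and 8.50), while the IVM array was not. The mean over 6 oocyte genes was 6.995 with IVM and 7.67 in the control in that pair, against 9.37 or more elsewhere. In whole worms, fewer cells of a type and less RNA per cell cannot be told apart, and what part these differences have in the F-box levels was not tested.

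*fbxa-215*, the brightest member and an s-type probeset of chromosome IV, was the one that varied most between control arrays (SD 0.94 over the 10 DMSO arrays, against a median SD of 0.18 for the families). It read 9.19, 6.39, 10.18, 10.10 and 9.96 with 1 µg/ml IVM, against 9.58, 7.08, 10.24, 10.21 and 9.74 in the controls. It read 9.41, 8.80, 8.37, 9.40 and 9.73 with 100 ng/ml IVM, against 9.62, 8.93, 8.40, 9.42 and 9.10 in the controls. Both arrays of replicate 2 at 1 µg/ml stood far below the rest, in the pair where *vit-2* and *col-19* were low, whereas the drug made a difference of -0.20 (SE 0.13, adjusted p = 0.516) at 1 µg/ml and 0.049 (SE 0.12) at 100 ng/ml. *fbxa-206* had a similar low pair, at 4.56 with IVM and 4.79 in the control of replicate 2, against 5.42 or more with IVM and 5.99 or more in the controls of the other replicates at that dose. *fbxa-210* also had its lowest values there, 7.62 with IVM and 7.25 in the control.

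Other members were high in that pair. *fbxa-156* and *fbxa-157* are neighbours on chromosome V, the first with an s-type probeset. In the control of replicate 2 *fbxa-156* read 8.51, against 6.94 to 7.29 in the other 4 controls of that experiment, and *fbxa-157* read 5.60, against 4.09 to 4.52. *fbxa-156* was higher with 1 µg/ml IVM in 4 of 5 pairs, by 0.42 (SE 0.14, adjusted p = 0.179), and it passed the threshold when replicate 2 was left out. *fbxa-67* (7.85 with IVM, 7.32 in the control) and *fbxa-64* (7.05 with IVM, 7.17 in the control) were also highest there. *fbxa-83* and *fbxa-145* were not high there. Like *fbxa-215*, both had their lowest values of the 1 µg/ml experiment in replicate 2, for *fbxa-145* 5.29 with IVM and 5.12 in the control. *fbxa-83* read 3.91, 3.78, 5.27, 5.26 and 4.70 with 1 µg/ml IVM, against 4.19, 3.50, 5.16, 5.50 and 4.48 in the controls, and its 10 arrays of the 100 ng/ml experiment lay between 3.23 and 4.45. It was high in replicates 3 to 5 of the 1 µg/ml experiment, and the drug made a difference of 0.013 (SE 0.11) at that dose. *fbxa-145* (SD 0.68 over the 10 DMSO arrays) and *fbxa-197* (SD 0.68) varied by as much.

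**Figure D5:**
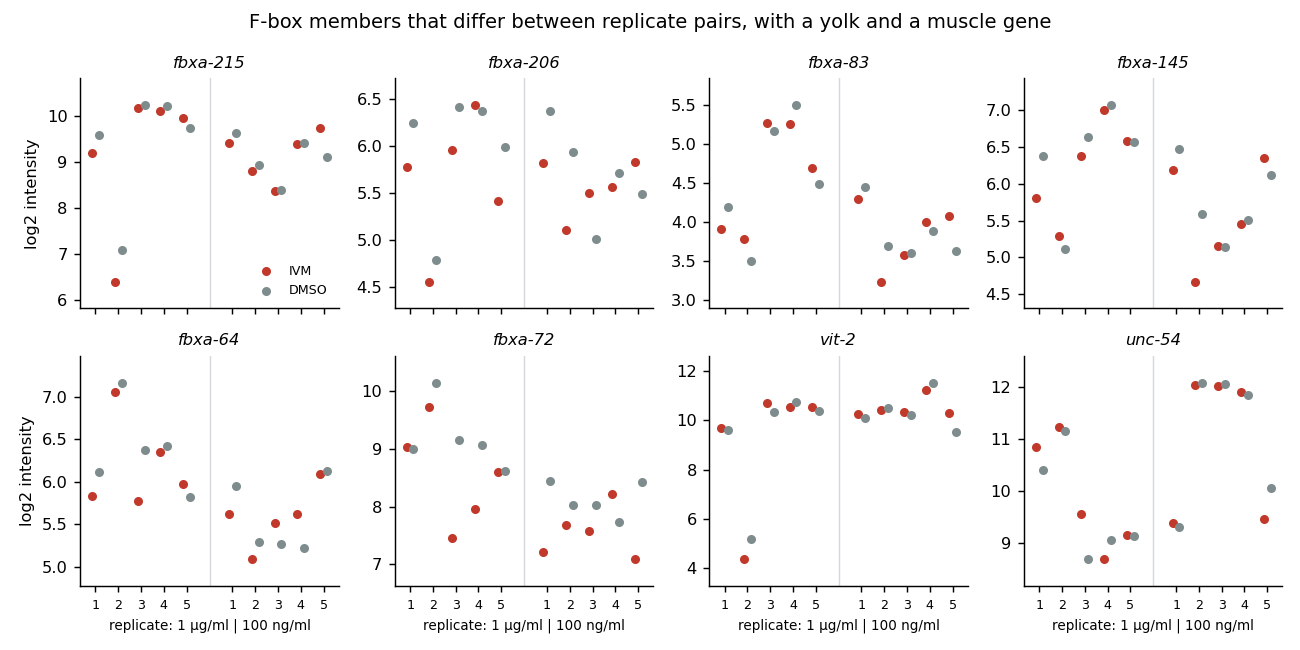
Log2 intensity (y axis, a scale of its own in each panel) of 6 F-box members, the yolk gene *vit-2* and the muscle gene *unc-54* on each array, by replicate of the 1 µg/ml and then the 100 ng/ml experiment (x axis), with IVM left of DMSO. *fbxa-215* and *fbxa-206* are low in replicate 2 at 1 µg/ml, where *vit-2* is low, while *fbxa-64* and *fbxa-72* are high there.

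Between the DMSO controls of the 1 µg/ml experiment and those of the 100 ng/ml experiment, most F-box probesets differed in 1 direction, by little. The difference was above 0 for 187 of 249 F-box probesets (75.1%) and for 76 of 93 *fbxb* probesets (81.7%), against 54.6% of all probesets. The median was 0.064 for the families and 0.022 for all. This was not particular to the 2 families: 35 of 43 probesets of the related *fbxc* family (81.4%) were above 0, with a median of 0.10. At or below the median intensity, 73.6% of the F-box probesets were above 0, beside 59.1% of all probesets there. No F-box probeset passed the threshold in limma (0% of all probesets did), 8 were at an unadjusted p under 0.05 (3.21%, beside 10.9% of all), all higher in the 1 µg/ml experiment, and 1, *fbxa-72*, passed by Rank Products (0.402%, beside 1.99% of all). With array weights 46 F-box probesets were called, 45 of them higher, where 34.8% of all probesets were. Without replicate 2 of the 1 µg/ml experiment 77.1% were above 0, beside 54.3% of all, and limma called 0, with 21 (8.43%) at an unadjusted p under 0.05, beside 17.1% of all. DMSO share and experiment cannot be told apart in this comparison. The mix of pairs differed too. High F-box medians were found in the controls of replicates 3 to 5 of the 1 µg/ml experiment and replicates 1 and 5 of the other. Body wall muscle genes differed the other way (-1.38 for *unc-54*, -1.39 for *unc-15* and -0.98 for *myo-3*). What part this mix has in the shift was not tested.

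*fbxa-72* had the largest difference between the control groups, 1.06 (SE 0.26, adjusted p = 0.415), and was the only F-box probeset whose control groups did not overlap (0.402%, beside 1.05% of all). Its lowest control of the 1 µg/ml experiment was 8.62 and its highest of the 100 ng/ml experiment was 8.45. Next came *fbxa-64* (0.81), *fbxa-120* (0.75), *fbxa-83* (0.71) and *fbxa-145* (0.59). Without the control of replicate 2 of the 1 µg/ml experiment these were 0.82 for *fbxa-72*, 0.61 for *fbxa-64*, 0.92 for *fbxa-120*, 0.98 for *fbxa-83* and 0.90 for *fbxa-145*, with adjusted p of 0.174 to 0.224. The largest differences downwards were those of *fbxa-60* (-0.23), *fbxa-178* (-0.21), *fbxa-202* (-0.21), *fbxa-12* (-0.20) and *fbxa-74* (-0.18).

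Other genes of the same ligases were taken from lists of the pathway. SKP1-related genes (*skr*) were measured by 20 probesets of 18 genes, of which 2 (10%) rose and none fell with 1 µg/ml IVM, beside 2.11% and 1.37% of all probesets. Their median log2 fold change was 0.15. *skr-5*, which encodes a SKP1-related partner of CUL-6, read 6.54, 6.27, 6.27, 6.67 and 5.71 with IVM, against 5.43, 4.68, 5.72, 5.66 and 5.58 in the controls. All 5 pairs were higher, and the groups meet only at the IVM array of replicate 5. The change was 0.88 (SE 0.18, adjusted p = 0.0400 from limma), and *skr-19* rose by 0.84 (SE 0.10, adjusted p = 0.00559). *skr-4* and *skr-3*, the other partners of CUL-6, were higher in all 5 pairs without passing the threshold (0.51, adjusted p = 0.0549, and 0.24, adjusted p = 0.124). *cul-6* and *rcs-1*, named after their values were seen, were at -0.092 (SE 0.13) for *cul-6* and -0.10 (SE 0.10) for *rcs-1*. The F-box adaptors of the same ligase were at -0.14 (SE 0.08) for *fbxa-75* and 0.17 (SE 0.09) for *fbxa-158*, which was higher in 4 of 5 pairs (adjusted p = 0.435). Both adaptors were dim, with mean log2 intensities of 3.37 and 3.68, and no detection call tells their signal from background.

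At 100 ng/ml, 0 of the 20 *skr* probesets were called by limma (0% of all probesets were). At an unadjusted p under 0.05 there was 1 (5%), beside 4.35% of all. Without replicate 4, limma called 2 (10%), both higher, beside 1.52% of all probesets, 0.977% upwards. These were *skr-5* (limma adjusted p = 0.0325) and *skr-19* (limma adjusted p = 0.00660). In the control comparison all 20 were above 0, with a median of 0.61, beside 54.6% of all probesets above 0 and a median of 0.022, and none passed the threshold. The muscle genes ran the other way there, at -1.38 for *unc-54*, -1.39 for *unc-15* and -0.98 for *myo-3*, and their part in the *skr* levels was not tested. Cullins and their partners had 16 probesets, the COP9 signalosome 6 and ubiquitin-conjugating enzyme variants (*uev*) 3, and the related *fbxc* family had 43. None of these was called at 1 µg/ml by limma, beside 3.48% of all probesets. In the same order, 2 (12.5%), 0, 0 and 5 (11.6%) were at an unadjusted p under 0.05, beside 15.6% of all. In the *fbxc* family the largest differences each way were *fbxc-58* at 0.45 (SE 0.15, adjusted p = 0.180) and *fbxc-32* at -0.40 (SE 0.11, adjusted p = 0.0948).

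A few adaptors outside the 2 families and a *pals* gene were among the 2.11% of all probesets that rose with 1 µg/ml IVM. Among 12 probesets of other F-box genes 1 rose: *fbxl-1*, which encodes an F-box protein with leucine-rich repeats, was higher by 1.23 (SE 0.21, adjusted p = 0.0162). It read 8.48, 9.36, 7.86, 7.58 and 6.73 with IVM, against 6.96, 7.74, 6.63, 5.91 and 6.58 in the controls, so each IVM array was above its own control although the groups overlap. *fog-2*, an F-box gene of the hermaphrodite germline, was lower in all 5 pairs without passing the threshold (-0.13, SE 0.09, adjusted p = 0.532). Of 97 probesets of MATH and BTB domain genes, whose BTB members are adaptors of CUL-3 ligases, *bath-26* rose by 0.41 (SE 0.09, adjusted p = 0.0444) on 1 of its 2 probesets, and the other read 0.22 (adjusted p = 0.363). Of 23 probesets of *pals* genes, a family with some members known for their induction by intracellular infection, *pals-32* rose by 1.53 (SE 0.13, limma adjusted p = 0.00120). It read 7.57, 6.19, 6.60, 6.94 and 6.57 with IVM, against 5.63, 4.68, 5.23, 5.17 and 5.53 in the controls. These groups do not overlap, which held for 1.60% of all probesets. At 100 ng/ml its log2 fold change was 0.061 (SE 0.18), and the difference between doses was 1.47 (adjusted p = 0.184).

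Some members rest on more than 1 probeset. *fbxa-136*, *fbxa-150* and *fbxa-214* are each measured by a pair of probesets. Those of *fbxa-150* had mean intensities of 6.79 and 4.22 and log2 fold changes at 1 µg/ml of 0.14 (SE 0.11) and -0.13 (SE 0.09), so the direction differs between them and neither passed the threshold. Those of *fbxa-214* were at -0.16 and -0.017, and those of *fbxa-136* at 0.014 and 0.0050. Of the 14 probesets shared by several F-box genes none was called by limma at 1 µg/ml, beside 3.48% of all probesets. At an unadjusted p under 0.05 there were 3 (21.4%), beside 15.6% of all. The largest change was that of the probeset for *fbxa-91* and *fbxa-92*, higher in all 5 pairs by 0.65 (SE 0.17, adjusted p = 0.0915). The probeset shared by *fbxa-156* and *fbxa-157* was higher by 0.45 (SE 0.16, adjusted p = 0.219), beside 0.42 for the probeset of *fbxa-156* and -0.028 (SE 0.12) for that of *fbxa-157*. The 24 pseudogene probesets had a median log2 fold change of -0.0091 at 1 µg/ml. None was called by limma and 1 (4.17%) was at an unadjusted p under 0.05, beside 3.48% and 15.6% of all probesets.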

How the data were processed

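Affymetrix *C. elegans* GeneChip data of 20 arrays were used. The authors deposited log2 intensities after RMA, whose version is not given in the sources used here. Of 20575 probesets, 12 for spike-in controls were not used. Probesets were named by the platform annotation, and all 249 F-box probesets have an entry in RefSeq's genes for WBcel235. Members and lists were chosen with earlier results of these data known. Sample groups follow titles, source names and exposure labels; the description text, which gives another DMSO share on every array and another drug on some, was not used, so the printed DMSO shares rest on the other labels. The methods state that possible outlier arrays were removed and name none.

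limma 3.58.1 (R 4.3.3) was fitted for each dose on its 10 arrays, with the replicate as a block, two-sided, with Benjamini-Hochberg adjustment over 20563 probesets and a threshold of 0.05. SE is the moderated standard error. The dose contrast used 20 arrays in 10 blocks, and the controls were compared unpaired. Pairing comes from the split suspensions: after the group mean was taken off, the correlation within pairs lay between 0.499 and 0.884 in the 1 µg/ml experiment, and between 0.553 and 0.883 in the other, and 8 of 10 pairs correlated best within their own number, all but replicate 3 at 1 µg/ml (0.673 with replicate 4) and replicate 5 at 100 ng/ml (0.815 with replicate 1). Whether the suspensions were separate cultures is not stated beyond the name biological replicate. Rank Products, the algorithm that the methods name for calling genes, was run unpaired with 100 permutations at a percentage of false positives under 5%. Other settings were no block, all 20 arrays in 1 fit, quantile normalization again, median centring, only brighter probesets, trended and robust variance, array weights, an adjusted p under 0.10, 1 probeset per gene, only plain probesets and each replicate left out. Python 3.11.15, numpy 2.4.6, pandas 2.3.3, scipy 1.17.1 and matplotlib 3.10.9 were used. The fits were tested on simulated data.

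Members named are those called, the 8 largest rises and falls of 1 sign in 5 pairs at 1 µg/ml, the 5 largest each way in at least 4 pairs at 100 ng/ml, the 10 brightest and 3 dimmest, the 5 most variable over DMSO arrays, the 5 largest control differences and 3 largest dose contrasts each way, *fbxa-75*, *fbxa-158*, genes whose probesets disagree, and up to 6 with an array apart. From the 8 lists up to 4 genes by smallest p were named.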

Additional observations from a re-analysis of the deposited data

Results flagged for a closer look

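Within a group of 5 arrays, the highest or lowest array was set apart where its gap to the next took more than 0.71 of the range of the group (Dixon's criterion at 95%). Chance sets apart about 1 in 20 groups, and 59 of the 996 group values of the 249 F-box probesets (5.92%) met this. The control of replicate 2 at 1 µg/ml held 9 of the 59, the largest number of any array, and the values below are those of the named members.

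In the pair of replicate 2 at 1 µg/ml, *fbxa-215* was the lowest array of both groups, at 6.39 with IVM and 7.08 in the control. *fbxa-24* had its highest IVM array there (6.31). In the control group of that experiment the array of replicate 2 was highest for *fbxa-156* (8.51), *fbxa-157* (5.60), *fbxa-115* (5.08) and *fbxa-14* (7.04), and lowest for *fbxa-206* (4.79) and *fbxa-71* (3.89). In this pair *vit-2*, *col-19* and the oocyte genes were low, and their part in these values was not tested.

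The other arrays apart in the 1 µg/ml experiment were the IVM array of replicate 4 for *fbxa-69* (5.46, highest), the IVM array of replicate 5 for *fbxa-84* (5.10, highest), the control of replicate 1 for *fbxa-196* (4.41, highest), the control of replicate 4 for *fbxa-178* (5.72, lowest) and the control of replicate 5 for *fbxa-12* (4.00, highest). With 100 ng/ml IVM they were replicate 2 for *fbxa-115* (3.74, lowest), replicate 3 for *fbxb-56* (3.45, lowest) and replicate 4 for *fbxa-224* (3.61, lowest) and *fbxa-55* (3.74, lowest). In the controls of that experiment they were replicate 1 for *fbxa-136* (3.46, highest), replicate 3 for *fbxa-101* (7.91, lowest), *fbxa-118* (3.22, highest) and *fbxa-214* (3.14, highest), and replicate 4 for *fbxa-84* (4.09, lowest). No F-box change was shown to differ between the doses.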

How the results depend on the processing

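The 2 F-box calls at 1 µg/ml remained, for the same genes, with 1 probeset per gene, array weights, centred arrays and quantile normalization again. A trended and robust variance added *fbxa-24*, and an adjusted p under 0.10 added *fbxa-71*. There were 0 without the replicate block, where pairs are ignored, 0 with all 20 arrays in 1 fit, 0 of 29 with only brighter probesets, a filter that leaves out both genes, 0 by Rank Products, 1 with only plain probesets, which leaves out *fbxa-69*, and 0 to 2 when a replicate was left out. At 100 ng/ml leaving out a replicate gave 0 to 3, the 3 without replicate 4, and every other setting gave 0. The dose contrast gave 0 under every setting, and the control comparison gave 0 when an array was left out, 46 with array weights and 1 by Rank Products. The median log2 fold change was -0.010 to 0.017 at 1 µg/ml and -0.011 to 0.011 at 100 ng/ml when a replicate was left out, and 0.041 at 100 ng/ml with only brighter probesets. Where no cause is given, it was not tested. Of the values of single genes, 522 kept their direction and side of the threshold, 10 lost and 9 gained the threshold, and none turned.

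The number of arrays, 5 a group, limits the precision, and no detection call tells signal from background. Equal replicate numbers of the 2 experiments are not known to mark shared cultures; with them as a block the control comparison also gave 0.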
